A study of Mus musculus with 12 samples.

Results

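Integrins are cell surface receptors made of 1 alpha and 1 beta chain that attach cells to matrix proteins and to other cells. In macrophages and other leukocytes, the beta2 chain *Itgb2* pairs with *Itgal* (LFA-1), *Itgam* (Mac-1, the complement receptor whose alpha chain is CD11b) or *Itgax* (CD11c), and these receptors serve firm adhesion to ICAMs and the uptake of complement-coated particles. The beta1 chain *Itgb1* pairs with *Itga4* (VLA-4, a receptor for VCAM-1 and fibronectin), *Itga5* (the classical fibronectin receptor) or *Itga6* (a laminin receptor), and *Itgav* pairs with *Itgb5* in a vitronectin receptor. The mRNA levels of these 10 subunits were followed in bone marrow-derived macrophages (BMDMs) before and after stimulation of the beta2-adrenergic receptor (B2AR). The 10 genes were taken by symbol from the count table, which lists 53379 genes and 27 integrin subunits in all, and 10 of 10 passed the filter on low counts that left 12386 genes to be tested.

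BMDMs from 4 C57Bl/6J mice were left untreated or were stimulated with 1 μM fenoterol, a B2AR agonist, over 1 h or 4 h. Each of the 3 groups held 4 libraries, 1 of each mouse. The cells of all groups were differentiated for a week with L929 cell-conditioned medium and replated the day before, and fenoterol was added without a change of medium. The untreated cells were the control for both times. The total count per library was between 14580533 and 24153284. Values below are normalized counts, that is counts scaled by the TMM method so that libraries can be compared, and are given for mouse 1, 2, 3 and 4 in that order. The libraries of a group came from separate mice, and each mouse gave a library to all 3 groups. Except where the mouse is named as a block, the fit had no mouse term. Its p-values thus set changes against the spread between mice and do not use the pairing.

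The macrophage markers (8 of 8 tested) had summed levels, in CPM (counts scaled to the same library total), from 38790 to 40240 without fenoterol, from 33860 to 38880 after 1 h and from 33860 to 37930 after 4 h. Of the defining markers, *Mertk* fell at 4 h (log2 fold change -1.51), *Adgre1*, *Csf1r* and *Cd68* fell by 0.21 to 0.26 on the log2 scale, and *Fcgr1* (0.72) rose. Neutrophil markers, of interest since neutrophils carry much *Itgam*, summed to between 30.8 and 61.7 CPM over the 12 libraries with *Ly6g* at 3 counts or fewer in each. Stromal markers summed to between 21.9 and 66.8 CPM, and markers of dendritic cells to at most 2.08, of lymphocytes to at most 0.325 and of mast cells to at most 0.195 CPM. The megakaryocyte markers, which bear on *Itga2b* and *Itgb3*, summed to between 1.64 and 3.37 in untreated and 4.03 to 5.22 CPM at 4 h, almost all of it *Ppbp*, while *Gp9*, *Gp1bb* and *Gp6* had 3 counts or fewer. The part of these shifts in the results was not tested. In bulk RNA, fewer cells of a type and less RNA per cell cannot be told apart.

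According to the GENCODE M21 annotation of GRCm38, the 3 members that are alpha chains of beta2 integrins lie on the plus strand of chromosome 7, *Itgal* at chr7:127296260-127335138, *Itgam* at chr7:128062640-128118491 and, next to it, *Itgax* at chr7:128129547-128150657. *Itgb2* is at chr10:77530252-77565708. *Itga6* (chr2:71745616-71858416), *Itga4* (chr2:79255426-79333123) and *Itgav* (chr2:83724397-83806916) lie on the plus strand of chromosome 2. *Itgb1* is at chr8:128685654-128733200, *Itga5* at chr15:103344286-103366763 on the minus strand and *Itgb5* at chr16:33829665-33949338. Promoter sequences, from 250 bases before to 50 bases after the RefSeq start (GRCm38.p6), were at hand for 7 of the 10 genes. Shown are those of *Itgam* and *Itgax*, neighbours that share the partner *Itgb2* and had values moving in opposite directions at 4 h, and of *Itga5* and *Itgb1*, the fibronectin receptor pair and the subunits that changed at 1 h. Capitals mark a match to a motif described after the sequences.
*Itgam*, chr7:128062390-128062689, plus strand: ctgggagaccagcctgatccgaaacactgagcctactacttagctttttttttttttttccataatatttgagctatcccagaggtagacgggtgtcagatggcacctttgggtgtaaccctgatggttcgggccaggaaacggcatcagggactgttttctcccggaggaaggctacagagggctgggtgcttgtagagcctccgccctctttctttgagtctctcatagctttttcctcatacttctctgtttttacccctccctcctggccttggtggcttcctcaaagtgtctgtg
*Itgax*, chr7:128129300-128129599, plus strand: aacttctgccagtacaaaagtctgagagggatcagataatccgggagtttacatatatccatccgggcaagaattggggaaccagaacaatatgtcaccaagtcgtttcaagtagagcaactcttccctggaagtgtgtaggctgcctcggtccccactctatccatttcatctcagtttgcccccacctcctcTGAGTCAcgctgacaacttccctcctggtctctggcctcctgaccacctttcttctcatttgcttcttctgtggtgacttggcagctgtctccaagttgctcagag
*Itga5*, chr15:103366742-103367041, minus strand: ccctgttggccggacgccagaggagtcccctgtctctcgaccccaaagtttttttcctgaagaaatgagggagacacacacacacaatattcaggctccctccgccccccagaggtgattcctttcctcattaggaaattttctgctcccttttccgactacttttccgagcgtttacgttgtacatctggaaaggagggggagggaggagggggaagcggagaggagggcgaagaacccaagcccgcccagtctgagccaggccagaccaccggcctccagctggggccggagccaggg
*Itgb1*, chr8:128685404-128685703, plus strand: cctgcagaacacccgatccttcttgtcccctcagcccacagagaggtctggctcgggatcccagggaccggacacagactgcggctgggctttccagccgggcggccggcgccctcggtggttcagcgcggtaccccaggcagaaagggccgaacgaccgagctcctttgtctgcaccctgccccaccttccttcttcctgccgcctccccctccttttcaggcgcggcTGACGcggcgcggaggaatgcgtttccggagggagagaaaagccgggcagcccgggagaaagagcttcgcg

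The windows of *Itgam* (50.3% G and C) and *Itgax* (50%) were close to the median of all 32851 RefSeq windows (52.7%), with 6 and 5 CpG dinucleotides against a median of 7. Those of *Itgb1* (67.3%, 27 CpG), *Itgav* (67.3%, 24 CpG), *Itgb5* (65.7%, 20 CpG), *Itga4* (64.3%, 10 CpG) and *Itga5* (58.7%, 13 CpG) were richer. Windows were searched on both strands for the CRE, the element bound by CREB, as TGACGTCA, which 1.79% of all windows hold and which was found in 0 of the 7. Its short form TGACG, which is also part of the full CRE and is held by 20.8% of all windows, was found in *Itgb1*, where it starts 21 bases before the RefSeq start. The AP-1 motif TGANTCA (7.81% of all windows) was found in *Itgax* as TGAGTCA, from 56 bases before the start. The PU.1 motif GAGGAAGT (3.20% of all windows) was found in *Itgav* on the minus strand, and *Itga4*, *Itga5*, *Itgam* and *Itgb5* had no match to any of the 4 motifs. A match of letters describes the window and does not show binding.

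Compared per length of exon, the 10 subunits covered a wide range in untreated BMDMs. Levels are in TPM, the counts divided by the union of each gene's exon bases and scaled to the same total in each library. *Itgb2* was highest at 1113 ± 82.3 TPM (SD, n = 4), rank 91 of the 12386 genes tested, and *Itgb1* followed with 494 ± 30.0 TPM. *Itgam* (321 ± 7.71 TPM) and *Itgb5* (308 ± 20.3 TPM) overlapped in their libraries, as did *Itga5* (96.2 ± 7.62 TPM) and *Itga6* (91.1 ± 18.3 TPM). *Itga4* was at 46.2 ± 3.58 TPM. *Itgax* (26.7 ± 8.21 TPM), *Itgav* (16 ± 2.83 TPM) and *Itgal* (14.2 ± 3.19 TPM) were lowest, each overlapping the next in this order. At 4 h *Itgam* and *Itgb5* no longer overlapped (433 and 237 TPM), and *Itga6* (29.6 TPM) stood beside *Itga4* (31.5 TPM) rather than beside *Itga5* (120.1 TPM). With the longest transcript as length, *Itga6* (149 TPM) was above *Itga5* (84.0 TPM) in untreated BMDMs without overlap, and at 4 h it was below *Itga5* and overlapped *Itga4*.

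**Figure D1:**
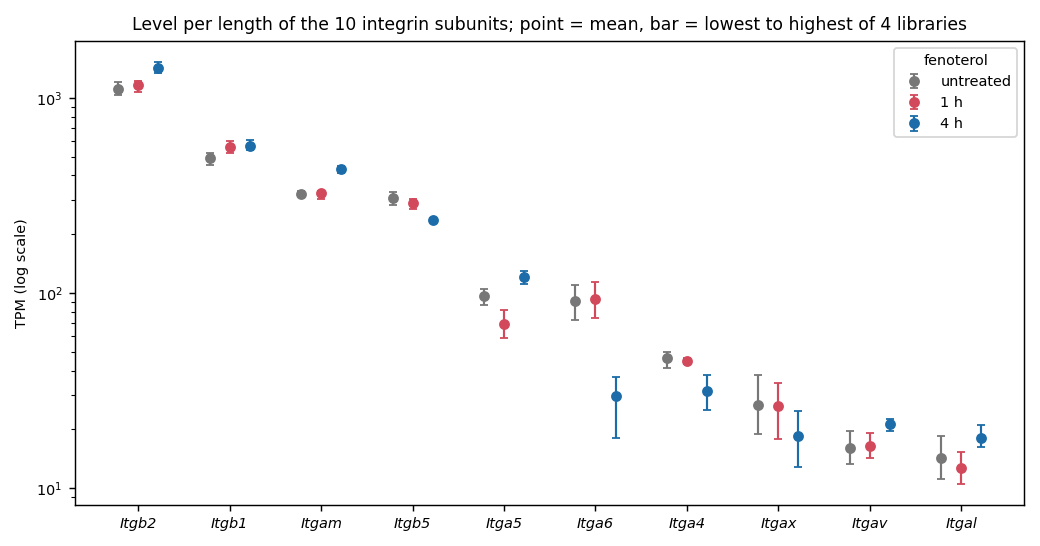
Level per length of each subunit in TPM on a log axis, for untreated BMDMs (grey) and BMDMs after 1 h (red) and 4 h (blue) of fenoterol. Points are means and bars run from the lowest to the highest of 4 libraries. *Itgb2* is highest in all 3 groups, and with this length, the union of exon bases, *Itga6* drops from beside *Itga5* to beside *Itga4* at 4 h.

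The level of *Itgam* depends on the annotation. In GENCODE M21, 68.7% of its exon bases also belong to *Gm49368*, a gene model of the same strand, which was listed with 14 counts over the 12 libraries against 124505 for *Itgam*. Of the 50-base stretches of *Itgam*, the length of a read, 66.3% also occur in another gene. Counted against its unshared exon bases only, a choice made after seeing the data, *Itgam* was at 1023 TPM and its libraries overlapped those of *Itgb2* (1112 TPM). Its fold changes between groups do not use the length. *Itga4* shares 8.04% of its exon bases with *Cerkl* on the opposite strand (598 counts against 39051), and the strand option of the counting is not given in the sources used here.

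After 1 h of fenoterol, 2 of the 10 subunits passed the threshold of an adjusted p under 0.05, 1 upwards (*Itgb1*) and 1 downwards (*Itga5*). Among all genes tested, 20.1% passed, 10.0% upwards and 10.1% downwards, so the members' share was that of the background. At 4 h, 8 of the 10 passed, 5 upwards (*Itgam*, *Itgb2*, *Itgav*, *Itga5* and *Itgb1*) and 3 downwards (*Itga6*, *Itga4* and *Itgb5*), against 40.0% of all genes, 19.7% upwards and 20.4% downwards. Between 1 h and 4 h, 7 passed, 4 upwards and 3 downwards, against 38.5% of all genes, 18.7% upwards and 19.8% downwards. The median log2 fold change of the 10 genes was 0.06 at 1 h and 0.25 at 4 h, beside -0.005 and 0.004 for all genes. The 3 contrasts share libraries and are not independent of each other. When the fit had mouse as a block, 3 (1 h), 10 (4 h) and 9 (4 h against 1 h) of the 10 passed, beside 3348, 5870 and 5775 of the 12386 genes. The changes were moderate in size, since all but that of *Itga6* at 4 h were under 2-fold.

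**Figure D2:**
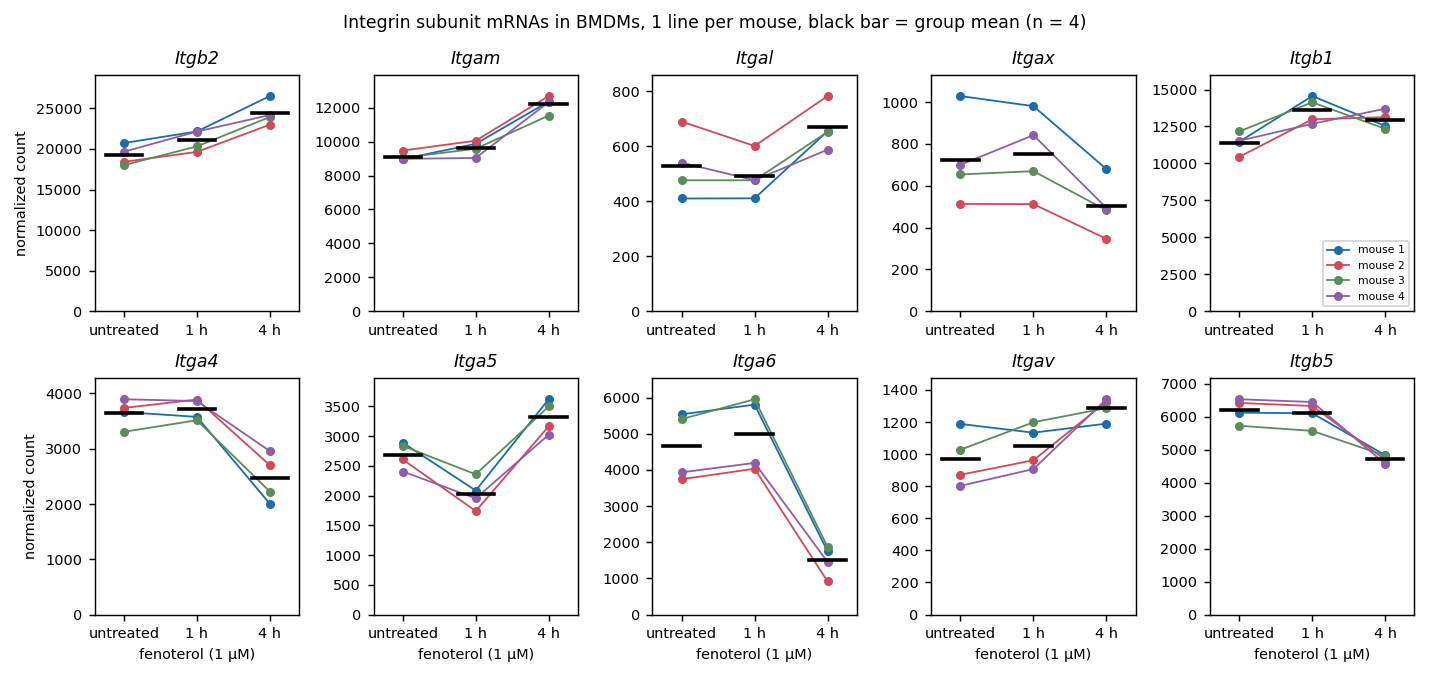
Normalized counts (vertical axes, from 0) of the 10 integrin subunits in untreated BMDMs and after 1 h and 4 h of fenoterol, with a line for each of 4 mice and a black bar at each group mean. The 4 lines of *Itga6* drop between 1 h and 4 h, the lines of *Itgax* keep their order between mice while they fall, and those of *Itga5* dip at 1 h and end above their start.

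The beta2 chain itself was higher at 4 h. The normalized counts of *Itgb2* were 20721, 18409, 18003 and 19655 without fenoterol, 22150, 19630, 20310 and 22137 at 1 h and 26506, 22986, 23929 and 24168 at 4 h. All 4 libraries at 4 h lay above all untreated and all 1 h libraries, while untreated and 1 h libraries overlapped. *Itgb2* rose at 4 h by 0.35 on the log2 scale (SE 0.06, adjusted p = 0.00053, edgeR's quasi-likelihood test with Benjamini-Hochberg adjustment, as for all adjusted p below), which is 1.27-fold. At 1 h the log2 fold change was 0.13 (adjusted p = 0.178), with higher values in 4 of 4 mice, and it passed with the mouse as a block (adjusted p = 0.0216). Between 1 h and 4 h *Itgb2* rose by 0.21 (adjusted p = 0.0168), a call that was lost without the 1 h library of mouse 2 (0.18, adjusted p = 0.057) or 3 (0.18, adjusted p = 0.0671) or the 4 h library of mouse 1 (0.17, adjusted p = 0.0549).

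*Itgam*, the alpha chain of Mac-1, was also higher at 4 h. It had normalized counts of 8972, 9469.8, 9047.5 and 8982 in untreated BMDMs, after 1 h 9869, 10054, 9578 and 9038.5, and after 4 h 12357, 12682, 11534 and 12325. The 4 h libraries were again above all others. *Itgam* rose at 4 h by 0.42 on the log2 scale (SE 0.05, adjusted p = 7.58e-06), 1.34-fold and by 0.35 to 0.46 within single mice. Its log2 fold change at 1 h was 0.08 (adjusted p = 0.31), and between 1 h and 4 h it rose by 0.34 (adjusted p = 7.45e-05).

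*Itgal*, the alpha chain of LFA-1, had the lowest mean level per length of the 10 in untreated BMDMs, where its libraries overlapped those of *Itgav*. Its normalized counts were 410.5, 690.3, 477 and 541 before stimulation, 411, 601, 477 and 477 at 1 h and 655, 783, 653 and 588 at 4 h. Mouse 2 had the highest value in each group, and at 4 h the value was higher than in the untreated library of the same mouse in 4 of 4 mice although the groups overlapped. The log2 fold change at 4 h was 0.34 (SE 0.15, adjusted p = 0.0779) and passed in 4 of 20 other settings, which were the mouse as a block (0.36, adjusted p = 0.00143), limma-voom (0.38, adjusted p = 0.0439), no filter on low counts (0.35, adjusted p = 0.0291) and the fit without the untreated library of mouse 2 (0.49, adjusted p = 0.00994). Against 1 h *Itgal* rose at 4 h by 0.45 (adjusted p = 0.0274), and this call was lost without the 1 h library of mouse 1 (0.37, adjusted p = 0.0829), 3 (0.41, adjusted p = 0.0717) or 4 (0.43, adjusted p = 0.0585) or the 4 h library of mouse 2 (0.36, adjusted p = 0.0864).

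*Itgax*, which encodes CD11c and is widely used as a marker of dendritic cells and some tissue macrophages, had lower values at 4 h. Its normalized counts were 1029, 513, 654 and 700.05 before stimulation, 980.5, 512, 669.9 and 842 at 1 h and 680.0, 347, 483 and 494 at 4 h. Mouse 1 was highest and mouse 2 lowest in all 3 groups, so the groups overlapped although each mouse was lower at 4 h than before, by 0.44 to 0.60 on the log2 scale. The log2 fold change at 4 h was -0.54 (SE 0.23, adjusted p = 0.0842), and with the mouse as a block *Itgax* fell by 0.53 (adjusted p = 4.71e-06). Without the untreated library of mouse 1 the value was -0.32 (adjusted p = 0.303) and without its 4 h library -0.72 (adjusted p = 0.0323), the ends of the range over 20 other settings, of which 4 passed. Against 1 h the log2 fold change was -0.59 (adjusted p = 0.0629, with the block 1.68e-06). The dendritic cell markers, at most 2.08 CPM in sum, had *Ccr7* and *Cd209a* at 3 counts or fewer in all groups. The only one of them tested, *Zbtb46*, had mean normalized counts of 12.8 in untreated BMDMs and 6.24 at 4 h (log2 fold change -1.06, adjusted p = 0.133), and its part in the values of *Itgax* was not tested.

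Among the 3 members that are alpha chains of *Itgb2*, *Itgam* mRNA made up 88.7% ± 1.5 (SD, n = 4) of the summed level per length without fenoterol, 89.2% ± 1.51 after 1 h and 92.2% ± 0.851 at 4 h. *Itgax* made up 7.37% ± 2.21, 7.29% ± 1.96 and 3.96% ± 1.06, and *Itgal* 3.93% ± 0.838, 3.49% ± 0.556 and 3.86% ± 0.428. The share of *Itgax* was lower at 4 h than in the untreated library of the same mouse in 4 of 4 mice, from 10.4% to 5.24% in mouse 1, 5.10% to 2.66% in mouse 2, 6.78% to 4.03% in mouse 3 and 7.23% to 3.89% in mouse 4. These shares describe mRNA and were not tested. They leave out *Itgad*, a further partner of *Itgb2*, whose level per length was 0.432 TPM in untreated BMDMs and 0.401 TPM at 4 h. With the unshared exon bases of *Itgam* as its length, the share of *Itgax* was 2.51% in untreated BMDMs and 1.31% at 4 h.

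The beta1 chain was one of the subunits that changed at 1 h. *Itgb1* had normalized counts of 11471, 10451, 12169 and 11532 before stimulation, 14558, 12985, 14134 and 12682 at 1 h and 12532, 13133, 12345 and 13703 at 4 h. All treated libraries lay above all untreated ones, and the 1 h and 4 h libraries overlapped. *Itgb1* rose at 1 h by 0.25 on the log2 scale (SE 0.06, adjusted p = 0.00905), or 1.19-fold, and at 4 h by 0.18 (SE 0.06, adjusted p = 0.0308). The 1 h call was lost when libraries were scaled by their size only (0.18, adjusted p = 0.0513), which moved the median of all genes to -0.07. The call at 4 h was lost without the untreated library of mouse 1 (0.18, adjusted p = 0.056), 2 (0.14, adjusted p = 0.101) or 4 (0.18, adjusted p = 0.068) and without the 4 h library of mouse 2 (0.17, adjusted p = 0.0635) or 4 (0.15, adjusted p = 0.0898).

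*Itga5*, its partner in the fibronectin receptor, moved down and then up. The normalized counts were 2891, 2608, 2836 and 2406 before stimulation, 2085, 1740.1, 2358 and 1954 at 1 h and 3621, 3166.5, 3501 and 3025 at 4 h. No library of one group overlapped those of another, with 1 h lowest and 4 h highest. *Itga5* fell at 1 h by 0.40 on the log2 scale (SE 0.09, adjusted p = 0.0055), 1.32-fold, and was lower in 4 of 4 mice. At 4 h it rose against untreated BMDMs by 0.31 (SE 0.09, adjusted p = 0.0133), a call lost without the untreated library of mouse 4 (0.25, adjusted p = 0.0536), and against 1 h by 0.71 (SE 0.09, adjusted p = 2.57e-05), or 1.64-fold.

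The largest change of a member was the fall of *Itga6*, the laminin receptor chain, at 4 h. Its normalized counts were 5536, 3742, 5403 and 3932 before stimulation, 5804, 4031, 5953 and 4192.5 at 1 h and 1750.1, 917, 1871 and 1456 at 4 h. Mice 1 and 3 had higher values than mice 2 and 4 in each group, and all 4 h libraries lay below all others. *Itga6* fell at 4 h by 1.64 on the log2 scale (SE 0.21, adjusted p = 1.78e-05), which is 3.11-fold, and by 1.43 to 2.03 within single mice. At 1 h the log2 fold change was 0.10 (adjusted p = 0.797). Between 1 h and 4 h it fell by 1.74 (adjusted p = 1.41e-05).

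*Itga4*, the alpha chain of VLA-4, had normalized counts of 3664, 3738, 3307 and 3895.5 before stimulation, 3577, 3890.2, 3515 and 3863 at 1 h and 2004, 2701, 2225 and 2957 at 4 h. The 4 h libraries lay below all others, while untreated and 1 h libraries overlapped. *Itga4* fell at 4 h by 0.56 on the log2 scale (SE 0.10, adjusted p = 0.000407), 1.48-fold and in 4 of 4 mice, and by 0.59 against 1 h (adjusted p = 0.000351). At 1 h its log2 fold change was 0.02 (adjusted p = 0.917).

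*Itgav* and *Itgb5*, which together form a vitronectin receptor that macrophages also use for the uptake of apoptotic cells, went opposite ways at 4 h. *Itgav* had normalized counts of 1188, 871, 1028 and 802 before stimulation, 1134, 962, 1199 and 907 at 1 h and 1190.1, 1327, 1287 and 1342 at 4 h. It rose at 4 h by 0.40 on the log2 scale (SE 0.11, adjusted p = 0.0111), with differences within mice from 0.002 in mouse 1 to 0.74 in mouse 4, and the 4 h values were closer together than the untreated ones. Its log2 fold change was 0.11 at 1 h (adjusted p = 0.59) and 0.29 at 4 h against 1 h (adjusted p = 0.0547). The latter passed in 9 of 20 other settings, among them the mouse as a block (adjusted p = 0.00991), DESeq2 (0.0405), limma-voom (0.0469) and the fit of only the groups compared (0.0227). *Itgb5* had normalized counts of 6118, 6412, 5722 and 6524 before stimulation, 6099.9, 6319.6, 5565.5 and 6441 at 1 h and 4829, 4693, 4816 and 4566 at 4 h. Each 4 h library was below each of the others, and *Itgb5* fell at 4 h by 0.39 (SE 0.06, adjusted p = 6.68e-05), 1.31-fold, and by 0.37 against 1 h (adjusted p = 0.000138). At 1 h its log2 fold change was -0.02 (adjusted p = 0.86).

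**Figure D3:**
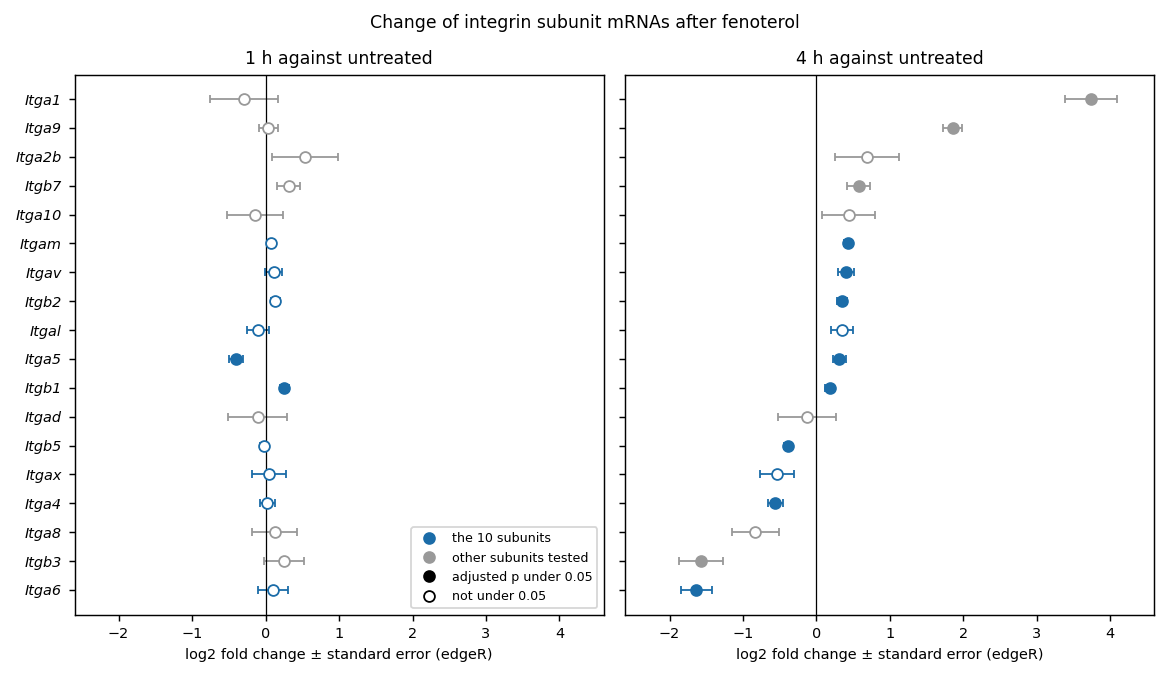
Log2 fold change ± standard error (edgeR) of the 10 integrin subunits (blue) and the 8 other subunits tested (grey) at 1 h and 4 h of fenoterol against untreated BMDMs; filled points had an adjusted p under 0.05. At 1 h the filled points are *Itga5* on the left and *Itgb1* on the right of 0, and at 4 h the values run from -1.64 for *Itga6* to 3.73 for *Itga1*.

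Of the 17 other integrin subunits, 8 had enough counts to be tested. At 1 h, 0 of the 8 passed in edgeR's quasi-likelihood test and 0 had an unadjusted p under 0.05, beside 20.1% of all genes that passed. Here DESeq2 called 0 with 1 unadjusted p under 0.05, limma-voom called 0 with 0, and edgeR with the mouse as a block called 1, *Itgb7* (log2 fold change 0.32, adjusted p = 0.00463), beside 3348 of all 12386 genes. At 4 h, 4 of the 8 passed, 3 upwards and 1 downwards, beside 40.0% of all genes, and the median log2 fold change of the 8 was 0.51. *Itga1*, which forms a collagen receptor with *Itgb1*, had normalized counts of 17.3, 6.70, 8.68 and 18.3 in untreated BMDMs and 247, 212, 116 and 129 at 4 h, and rose by 3.73 on the log2 scale (SE 0.35, adjusted p = 8.97e-07). *Itga9*, another partner of *Itgb1*, rose by 1.85 (SE 0.13, adjusted p = 2.64e-08), from 359 to 532 in untreated BMDMs to between 1399 and 1941. *Itgb3*, a partner of *Itgav*, fell by 1.58 (SE 0.30, adjusted p = 0.000632), from between 111 and 268 to between 39.0 and 70.9. *Itgb7*, which pairs with *Itga4*, was the third that rose and is named after its values were seen (0.57, adjusted p = 0.00884).

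Integrins are switched to a state of high affinity from inside the cell, by talin and kindlin binding to the beta chain, with RIAM and Rap1 bringing talin to the membrane. The list of 15 regulators also holds genes with other roles, such as *Dok1* and *Slc3a2*, so its directions do not stand for more or less activation. Of the 15, 14 were tested, and 4 passed at 1 h (3 upwards, 1 downwards) and 9 at 4 h (4 upwards, 5 downwards). These are 28.6% and 64.3%, beside 20.1% and 40.0% of all genes. *Cyth1*, the cytohesin that binds the tail of *Itgb2*, had normalized counts of 1667 to 1889.9 without fenoterol, of 6950.4 to 8512.5 after 1 h and of 7895 to 9162 after 4 h, and rose by 2.13 and 2.27 on the log2 scale (SE 0.07 for both, adjusted p = 2.45e-11 and 2.46e-11). *Slc3a2*, the CD98 heavy chain that associates with beta chains, rose by 1.14 at 1 h (adjusted p = 1.51e-09) and 0.60 at 4 h (adjusted p = 9.14e-07). *Dok1*, which competes with talin for the beta tail, fell by 1.00 at 1 h (adjusted p = 9.95e-08). *Apbb1ip*, which encodes RIAM, fell at 4 h by 0.96 (SE 0.06, adjusted p = 2.35e-08), from between 3717 and 4259 to between 2018 and 2176. *Tln2* fell by 1.02 at 4 h (adjusted p = 0.0426) at 6.26 to 26.8 normalized counts, and its call was lost in 10 of 18 other settings, among them DESeq2, limma-voom, no filter on low counts and the fits without untreated mouse 2 or 4, 1 h mouse 2 or any of the 4 h libraries. *Tln1*, the other talin, had a mean of 21019 normalized counts in untreated BMDMs and a log2 fold change of -0.008 at 4 h (adjusted p = 0.939). The kindlin *Fermt3*, with a mean of 12481 in untreated BMDMs, rose by 0.35 at 4 h (adjusted p = 7.07e-05). *Tln1* and *Fermt3* are named after their values were seen. The median of the 14 was 0.10 at 1 h and -0.04 at 4 h.

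Ligand-bound integrins assemble a complex of adaptors and kinases at the membrane. All 25 genes listed for it were tested, and 5 rose at 1 h, among them *Pxn*, which encodes paxillin (0.54, adjusted p = 0.00577), and *Lyn*, a Src family kinase (0.40, adjusted p = 4.69e-05), while the other 20 did not pass. The share called at 1 h was 20.0%, near the 20.1% of all genes, of which 10.0% passed upwards and 10.1% downwards. With the mouse as a block 7 of the 25 passed, beside 3348 of the 12386 genes. The further ones were *Vcl* (0.24, adjusted p = 0.0172) and *Src* (0.29, adjusted p = 0.03), named after their values were seen. At 4 h 17 of 25 passed, 9 upwards and 8 downwards, which is 68.0% beside 40.0% of all genes, with a median of 0.03 over the list. *Ptk2*, which encodes focal adhesion kinase, rose by 0.91 (SE 0.09, adjusted p = 1.65e-06), from between 305 and 400.1 to between 640.4 and 692 normalized counts, and *Lyn* rose by 0.74 (adjusted p = 3.75e-08). *Tns3*, a tensin that links beta chains to actin, fell by 2.34 (SE 0.09, adjusted p = 7.04e-11), from between 10147 and 11892 to between 1783 and 2456. *Fyb*, the adaptor ADAP of the pathway from Rap1 to beta2 integrins, fell by 1.24 (SE 0.07, adjusted p = 3.59e-09), from between 10284 and 11983 to between 4315 and 5073.

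Of 25 integrin ligands, 19 were tested, and 4 passed at each time, 3 upwards and 1 downwards at 1 h and 2 each way at 4 h, with medians of 0.004 and -0.07. The share called was 21.1% at both times, near the 20.1% of all genes at 1 h and below the 40.0% at 4 h. *Thbs1*, which encodes thrombospondin-1, had normalized counts of 1414 to 2099 without fenoterol, of 119340 to 160430 after 1 h and of 214790 to 255110 after 4 h, a rise of 6.26 and 6.97 on the log2 scale (SE 0.16 for both, adjusted p = 1.61e-12 and 2.33e-12). *Lamc1*, a laminin chain and so part of the ligand of *Itga6*, rose by 0.70 at 1 h (adjusted p = 4.53e-06) and 1.60 at 4 h (adjusted p = 4.31e-10). *Icam1*, the ligand of LFA-1 and Mac-1, fell by 0.71 at 1 h (adjusted p = 5.97e-07) and 0.81 at 4 h (adjusted p = 7.24e-08), from between 2879 and 3261 to between 1586 and 1842 normalized counts. *Icam2*, another ligand of LFA-1, fell by 0.67 at 4 h (adjusted p = 0.0204), a call lost without the untreated library of mouse 3 (-0.62) or the 4 h library of mouse 2 (-0.51) or 4 (-0.58).

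**Figure D4:**
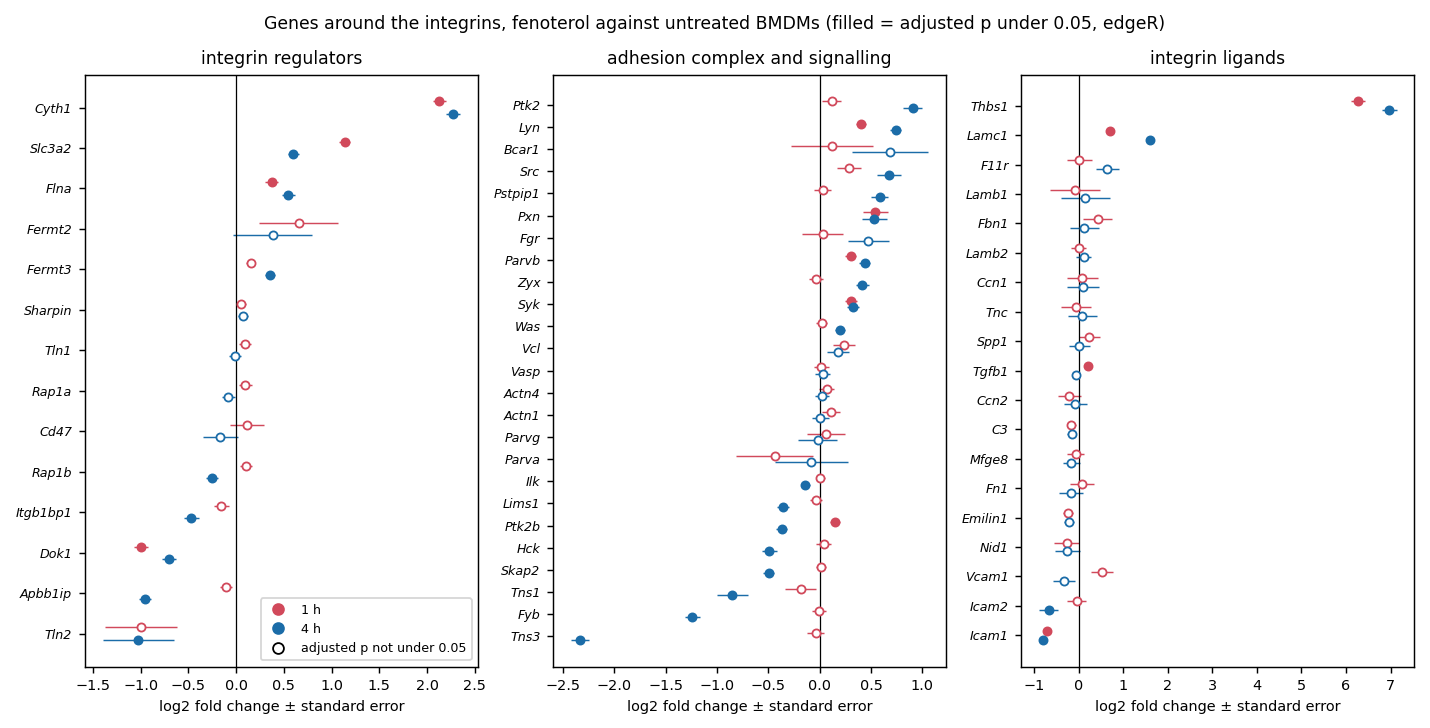
Log2 fold change ± standard error (edgeR) of the tested regulators of integrins, genes of the adhesion complex and integrin ligands at 1 h (red) and 4 h (blue) of fenoterol against untreated BMDMs; filled points had an adjusted p under 0.05, and each panel has its own scale. *Cyth1* at 2.13 and 2.27 and *Thbs1* at 6.26 and 6.97 stand at the top of their panels, and *Tns3* at -2.34 at 4 h is lowest in its own.

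The genes with the course most like that of the member with the largest rise at 4 h against untreated BMDMs, *Itgam*, were *Ctsl* (r = 0.984), *Tnfrsf23* (r = 0.984) and *N4bp1* (r = 0.983), by Pearson's r of log2 CPM over the 12 libraries among 10280 genes. Those most like *Itga6*, the member with the largest fall in that comparison, were *Myof* (r = 0.989), *Ipo5* (r = 0.987) and *Rragd* (r = 0.986). The 12 points come from 3 groups and share mice and depth, so these values describe likeness of course. *Ctsl*, which encodes cathepsin L, rose by 1.05 and *Myof*, which encodes myoferlin, fell by 1.03 on the log2 scale at 4 h, more than *Itgam* and less than *Itga6*. The first place of *Itgam* (0.42) was narrow, with *Itgav* at 0.40. Over 20 other settings the highest value was 0.45 for *Itgam*, 0.51 for *Itgav* and 0.49 for *Itgal*.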

How the data were processed

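RNA was measured in 12 libraries, BMDMs of 4 mice in 3 groups. The authors made stranded mRNA libraries, sequenced them as single-end reads of 50 bases, mapped the reads to GRCm38 with TopHat2 2.0.11 and counted them per gene with HTSeq 0.8.0, according to the submitters' processing notes. These deposited counts are whole numbers that were not normalized. The annotation release and the strand option of the counting are not given in the sources used here. Symbols, coordinates and exon lengths came from GENCODE M21 (53274 of 53379 genes matched), and promoter sequences from RefSeq.

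From these counts, genes were filtered with filterByExpr and libraries scaled by TMM. EdgeR's quasi-likelihood test (edgeR 4.0.16, R 4.3.3) was run in 1 fit over 12 libraries, with no covariate since the methods name none, and p-values were adjusted by Benjamini-Hochberg over the 12386 genes tested. The labels give the mouse of each library. For libraries of 1 mouse, deviations from the group means had r from 0.29 to 0.561 (12 pairs), against -0.304 to 0.0912 for different mice (36 pairs). The fits were also run on simulated counts with the same spread for all genes and no mouse effect. That run cannot show how the fits behave with the pairing of these libraries. TPM, shares within the beta2 alpha chains and motif matches were computed in Python 3.11.15 and are descriptions without a test. The alternatives were RLE or library-size scaling, other filters, DESeq2 1.42.0, limma-voom (limma 3.58.1), the mouse as a block, a fit of only the groups compared, a stricter threshold, other gene lengths and fits without each of the libraries.

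The 10 members and all lists (other integrin subunits, regulators, adhesion complex, ligands, cell markers) were chosen with earlier results of these data known. Named were all members, in each list the called genes with the 2 largest rises and falls per time point, and the 3 genes most correlated with the members that rose and fell most at 4 h, the latter at a mean normalized count of 50 or more. No set test was run. The result of 1 marker gene is not reported here.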

Additional observations from a re-analysis of the deposited data

Results flagged for a closer look

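Between 1 h and 4 h of fenoterol, 7 of the 10 subunits differed in the edgeR fit, as did 38.5% of all genes tested. The log2 fold change was 0.709 for *Itga5*, 0.446 for *Itgal*, 0.343 for *Itgam* and 0.212 for *Itgb2*, and it was -0.37 for *Itgb5*, -0.586 for *Itga4* and -1.74 for *Itga6*. In 6 of these genes, all but *Itga5*, the value at 1 h had not passed the threshold against untreated BMDMs.

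In 4 of 81 groups of 4 libraries, 1 library stood apart by Dixon's ratio of its gap to the range of the group, and about 4.05 groups would do so by chance (1 in 20). It was mouse 2 each time. *Itgam* in untreated BMDMs had 9469.8 normalized counts in mouse 2 against 8972 to 9047.5 in the others (ratio 0.848), *Slc3a2* at 1 h had 12404 against 11668 to 11783 (0.844), *Fyb* in untreated BMDMs had 11983 against 10284 to 10467 (0.892), and *Thbs1* at 4 h had 255110 against 214790 to 219970 (0.872).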

How the results depend on the processing

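Over 600 values of the 10 subunits under other settings, 553 kept their direction and their side of the threshold, 14 lost a call, 23 gained one and 10 changed sign, and of 578 values of other named genes 565 kept both and 13 lost a call. At 1 h, 1 subunit in place of 2 passed with library size only (2918 of 12386 genes), and at 4 h 5 in place of 8 passed at an adjusted p under 0.01 (3613 of 12386). With the mouse as a replicate block, 3, 10 and 9 of the subunits passed (1 h, 4 h, 4 h against 1 h) and 1 of the other integrin subunits at 1 h. At 1 h and 4 h the block gave 6 and 10 calls among the regulators, 7 and 19 in the adhesion complex and 6 and 6 among the ligands, and 5 among the other integrin subunits at 4 h, beside 3348 and 5870 of all genes. The calls it changed for members are given beside their values, and the block ended 0 member calls. Without a filter on low counts 10 passed at 4 h (4625 of 23560 genes). Library size only turned *Itga4* (-0.0454) and *Itgax* (-0.021) at 1 h and *Itgb1* at 4 h against 1 h (0.0209). Without 1 library each, the 1 h values ran from -0.0165 to 0.0608 for *Itga4*, -0.21 to 0.0478 for *Itgal*, -0.107 to 0.269 for *Itgax* and -0.0521 to 0.028 for *Itgb5*, none of them past the threshold. With the longest transcript as length, untreated levels were 893 TPM for *Itgb2*, 413 for *Itgb1*, 269 for *Itgam*, 261 for *Itgb5*, 149 for *Itga6*, 84.0 for *Itga5*, 51.7 for *Itga4* and 19.0 for *Itgav*, and the 4 h shares were 91.2% for *Itgam* and 4.48% for *Itgal*. With exon bases not shared on the same strand, a setting added after seeing the data, *Itgam* was at 1023 TPM, and the shares (untreated, 1 h, 4 h) were 96.2%, 96.4% and 97.4% for *Itgam*, 2.51%, 2.47% and 1.31% for *Itgax* and 1.33%, 1.18% and 1.28% for *Itgal*. Where a call was lost or a sign changed, the cause was not tested. Depth limits *Itga1*, with 5 to 20 reads per untreated library, more than the members, with at least 332 reads in each library.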
